A study of Homo sapiens with 6 samples.

Results

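RNA was measured in HT-29 cells, a line from a human colon adenocarcinoma. Taken here were 10 genes with roles in the uptake, activation and breakdown of 5-aza-cytidine drugs. These are the nucleoside carriers SLC29A1 and SLC29A2, the kinases DCK, UCK1 and UCK2, the catabolic enzymes CDA, DCTD and SAMHD1, and the ribonucleotide reductase subunits RRM1 and RRM2. Every probe set annotated to one of these 10 symbols was taken, which gave 26 of the 54613 probe sets tested. A probe set is the group of short probes on the HGU133 Plus 2.0 array that together give 1 signal for a transcript. In 24 of them the member is the only symbol, and these cover 9 genes. Both probe sets of UCK2 also carry the symbol of the microRNA gene MIR3658, which lies within UCK2 in RefSeq. Because only probe sets with a single symbol were counted, their values are given apart. Whether the second symbol matters for their signal was not tested. The tested cultures received 10 µM 5-aza-2′-deoxycytidine (5-Aza) for 72 hours in medium without serum (3 arrays), and the control cultures received only its solvent, water and acetate (3 arrays). The sample labels say only that the cells had an Aza treatment, and the name of the compound comes from the methods of the study. Neither source says whether each array had a culture of its own, so the p-values reflect only how far these arrays differ among themselves, which may be technical.

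5-Aza is the deoxyribose form of the drug, and azacytidine is the ribose form. Both enter cells mainly through equilibrative nucleoside transporters. Deoxycytidine kinase (DCK) adds the first phosphate to the deoxyribose form, while the uridine-cytidine kinases UCK1 and UCK2 act on the ribose form. The triphosphate of the deoxyribose form is then built into DNA, where it traps DNA methyltransferases. Cytidine deaminase (CDA) inactivates the nucleoside, dCMP deaminase (DCTD) acts on the monophosphate, and SAMHD1 hydrolyses deoxynucleoside triphosphates, that of 5-Aza included. Ribonucleotide reductase, the RRM1-RRM2 enzyme, makes the natural deoxynucleotides that compete with the drug and is needed to turn the diphosphate of the ribose form into its deoxy form.

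The arrays had been scaled to a common level before deposit. Even so, the median signal was 84.6 ± 1.42 on 5-Aza arrays and 74.2 ± 2.56 on control arrays (SD, n = 3 each), with p = 0.1 in a two-sided exact permutation test, which can give no smaller p with 3 arrays in each group. For ACTB, the log2 signal of the 3′ control probe set minus that of the 5′ one, which widens as RNA degrades, was 0.73 ± 0.086 on 5-Aza arrays and 0.54 ± 0.077 on control arrays (SD, n = 3 each, p = 0.1 in the same exact test). The part of either measure in the changes given here was not tested. The bacterial TrpnX probe sets, which match no human RNA, reached 22.6 to 42.0 on the 6 arrays, and a signal is called above background here when it exceeds the highest TrpnX signal of its own array. Of 12 colon epithelium markers 9 lay above that level on all 6 arrays. Of the other 3, CDX1 did not exceed it on any array, and CDX2 and PHGR1 exceeded it on some. Of 10 measured markers of immune, stromal and endothelial cells, 2 (COL1A1 and PECAM1) lay above it on all 6 arrays. The summed signal of these 10 was 777.5 to 836 on 5-Aza arrays and 533 to 687 on control arrays, and its part in the results was not tested. At an unadjusted p under 0.025 in limma, 1 gene of each marker list was higher and 0 were lower (3.01% and 0.915% of all genes were). These were CEACAM5 (log2 fold change 0.97) among the 12 epithelial markers and VWF (1.95) among the 10 others. Neither passed an adjusted p under 0.05. VWF exceeded background on 2 of the 6 arrays, and its control signals of 11.2, 20.4 and 7.7 all lay below it. Its call was lost after quantile normalization and when each array was centred on its median signal.

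The RNAs for uptake, for the first phosphorylation, for DCTD and SAMHD1 and for both reductase subunits were detected in HT-29 cells with and without 5-Aza. CDA was the exception, with a signal near background on all arrays. SAMHD1 had the largest difference among the probe sets that represent the genes, at 1.46-fold higher, DCK was 1.19-fold higher and DCTD was 0.891 of control. None of the 24 probe sets passed an adjusted p under 0.05 in limma (the smallest adjusted p was 0.604, for SAMHD1), nor did any of the 54613 probe sets tested (0%). At an unadjusted p under 0.05, 1 of the 24 was higher (5.26% of all probe sets were) and 0 were lower (1.97% of all were). With trend and robust variance in limma, 22 of all probe sets were higher and 1 was lower at an adjusted p under 0.05, and 0 of these were members. The SAM-type statistic also called 0 members at that threshold. At an unadjusted p under 0.025, 1 of the 24 was higher (2.97% of all probe sets were) and 0 were lower (1.05% of all were). The study's methods used this p threshold with SAM and also kept only the highest log2 fold changes, a ranking not applied here. Each gene was represented by its brightest probe set without the suffix _x_at, which marks probes that may also match other transcripts. By this measure 1 of the 9 genes was higher (3.01% of all 19775 genes were) and 0 were lower (0.915%).

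**Figure D1:**
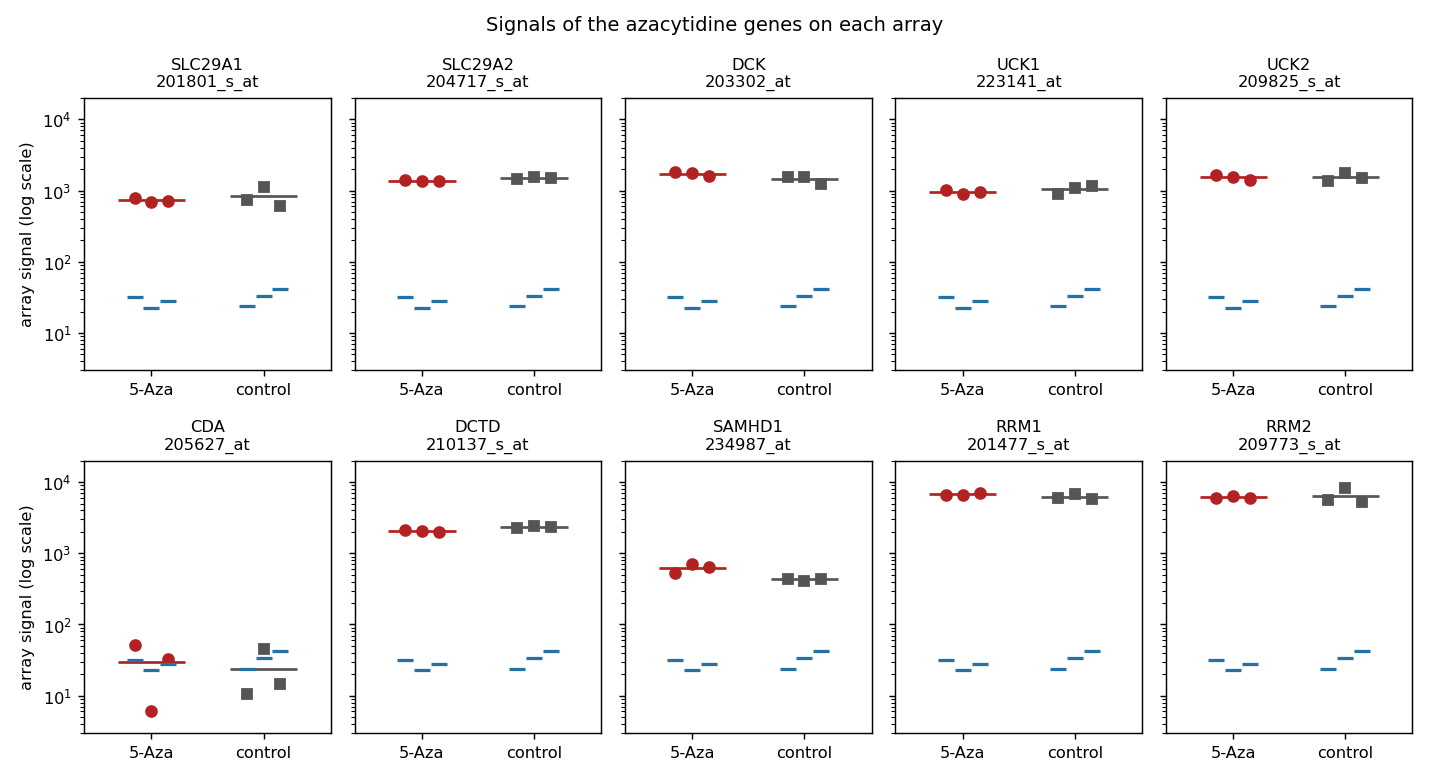
Array signals (log scale) in 5-Aza-treated (red circles) and control (grey squares) HT-29 cells, with 1 probe set for each gene, 3 arrays per group, group means as horizontal lines and the highest TrpnX signal of each array as a blue dash. CDA lies among the blue dashes and the other 9 genes lie far above them, and the UCK2 panel shows a probe set that also carries the symbol MIR3658.

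Among the 9 genes, SAMHD1 and DCK had every 5-Aza array above every control array (9.92% of all genes did), and SLC29A2 and DCTD had every 5-Aza array below (6.94% did). With 9 genes these counts are not far from the background. Among the 24 probe sets, 3 lay wholly above (9.29% of all) and 3 wholly below (5.22% of all). The median log2 fold change was -0.037 over the 9 genes and 0.038 over all genes. The 95% interval of limma, which reflects only how far these arrays differ among themselves, stayed within a 2-fold change in either direction for 8 of the 9 genes. The gene outside these limits was CDA. Of all genes, 53.0% stayed within them, but the 2 sets differ in signal. A control mean under 42.0, the highest TrpnX signal, was found for 1 of the 9 genes and for 6556 of all 19775. The part of signal level in this comparison was not tested.

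**Figure D2:**
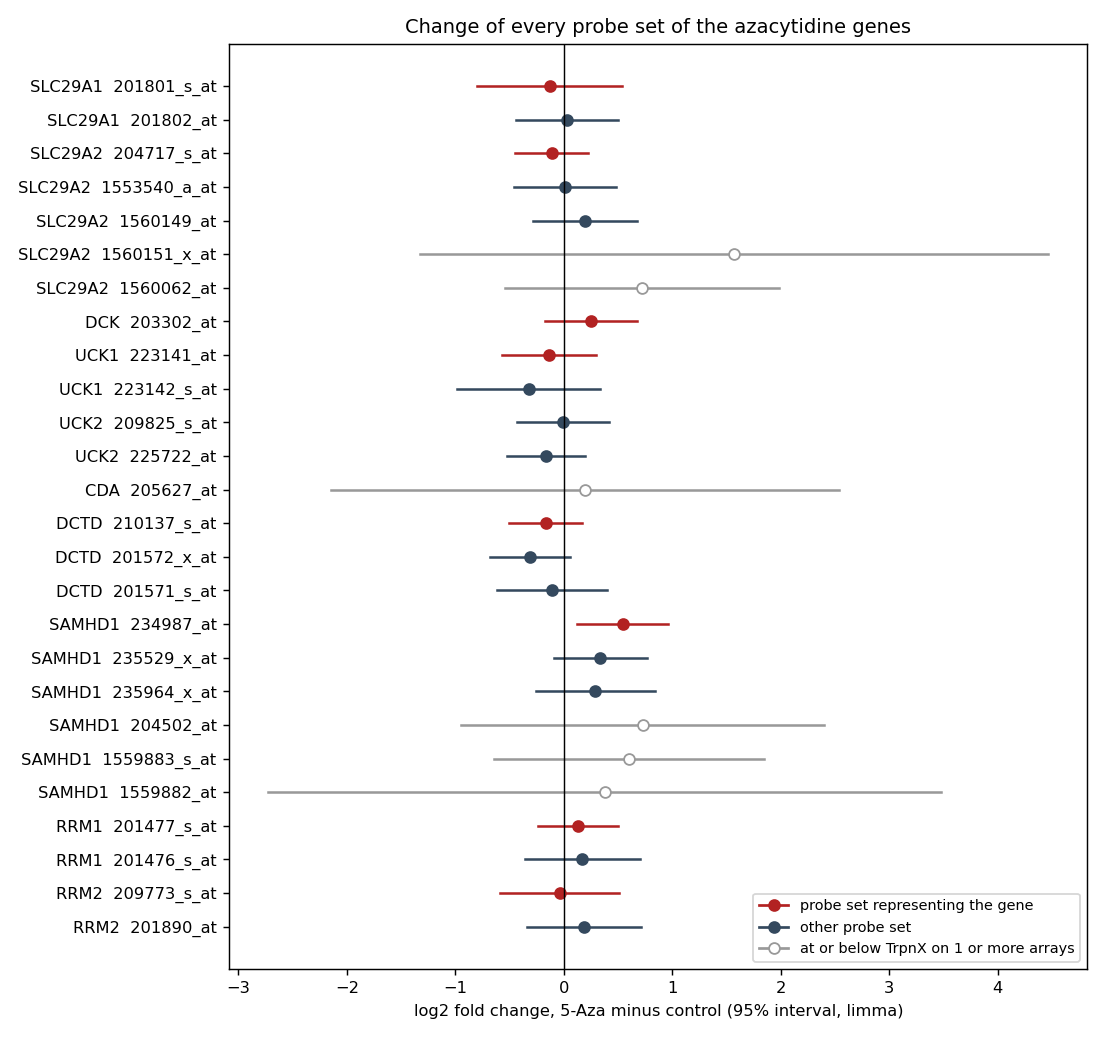
Log2 fold change (5-Aza minus control) of all 26 probe sets with its 95% interval from limma, n = 3 arrays per group. The interval of the SAMHD1 probe set 234987_at alone lies wholly to the right of 0, and open grey points mark probe sets at or below TrpnX on 1 or more arrays, whose intervals are the widest.

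The carrier SLC29A1 (ENT1), the main route of nucleosides across the plasma membrane in many cells, had signals of 783, 692 and 713 on the 5-Aza arrays and 745, 1128 and 604 on the control arrays (201801_s_at). The groups overlapped because the control arrays spread widely, with control replicate 2 as the highest. On the log2 scale the difference was -0.13 (SE 0.27, adjusted p = 0.936, limma), and without control replicate 2 its direction turned (0.12). The other probe set of SLC29A1 (201802_at) gave 0.032 on the same log2 scale (SE 0.19), with a 95% interval from -0.44 to 0.50.

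SLC29A2 (ENT2), the second carrier, had signals of 1419, 1356 and 1376 on the 5-Aza arrays and 1441, 1562 and 1485 on the control arrays (204717_s_at). All 5-Aza values lay below all control values, yet the lowest control was only slightly above the highest 5-Aza value. The difference was small, with a log2 fold change of -0.11 (SE 0.13, 95% interval -0.45 to 0.22, adjusted p = 0.884, limma), and p = 0.1 in the exact permutation test. Of the 5 probe sets for this gene, 1560151_x_at exceeded background on 3 of the 6 arrays and 1560062_at on 0. Their log2 fold changes of 1.57 (SE 1.15) and 0.72 (SE 0.50) came with overlapping groups. The remaining 2, 1553540_a_at and 1560149_at, had 0.011 and 0.195.

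DCK, the kinase for 5-Aza itself, had signals of 1801, 1757 and 1580 on the 5-Aza arrays and 1554, 1563 and 1229 on the control arrays (203302_at, its only probe set). Every 5-Aza array was above every control array, although 5-Aza replicate 3 and control replicate 2 were nearly level. In limma its log2 fold change was 0.25 (SE 0.17, 95% interval -0.18 to 0.67, adjusted p = 0.809), and p = 0.1 in the exact permutation test. When each array was centred on its median signal it was 0.061, and the groups overlapped. On these arrays the 95% interval of the DCK signal reached down to 0.884 of control. Resistance to 5-Aza in cultured cells is often linked to loss of DCK, but neither resistance nor DCK activity was tested here.

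UCK1, a kinase for uridine, cytidine and the ribose form of the drug, had signals of 1027, 892 and 947.5 on the 5-Aza arrays and 895, 1097 and 1173 on the control arrays (223141_at). The groups overlapped, with control replicate 1 level with 5-Aza replicate 2. Its log2 fold change was -0.14 (SE 0.17, adjusted p = 0.889, limma), and that of the second probe set, 223142_s_at, was -0.32 (SE 0.26, adjusted p = 0.838). The value of 223142_s_at rested on control replicate 3 (392, against 224 and 258 on the other control arrays), without which it was -0.089. The 2 probe sets shared by UCK2 and MIR3658 had 1662, 1529 and 1420 on the 5-Aza arrays and 1367, 1759 and 1523 on the control arrays (209825_s_at), and 926, 821 and 879 on the 5-Aza arrays and 951, 947 and 1049.5 on the control arrays (225722_at). In 225722_at the 5-Aza arrays all lay below the control arrays, at -0.17 on the log2 scale (SE 0.14, adjusted p = 0.846, limma). In 209825_s_at the groups overlapped, with a log2 fold change of -0.007.

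CDA, which deaminates cytidine, deoxycytidine and their 5-aza analogs and is high in liver and in mature neutrophils, had signals of 51.5, 6.1 and 32.6 on the 5-Aza arrays and 10.5, 45.7 and 14.5 on the control arrays (205627_at, its only probe set). It exceeded background on 2 of the 3 5-Aza arrays and on 1 of the 3 control arrays, and the groups overlapped. Its log2 fold change of 0.20 had an SE of 0.93 and a 95% interval from -2.15 to 2.54, so that changes of several fold in either direction were not detectable at this signal. The direction turned without 5-Aza replicate 1 (-0.39). Of the 9 genes CDA had the widest interval.

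DCTD, which turns dCMP into dUMP and so feeds the synthesis of thymidylate, had signals of 2146, 2059 and 2007 on the 5-Aza arrays and 2233, 2380.2 and 2359 on the control arrays (210137_s_at). Every 5-Aza array was below every control array. On average DCTD had a log2 fold change of -0.17 (SE 0.13, 95% interval -0.50 to 0.17, adjusted p = 0.837, limma), and p = 0.1 in the exact permutation test. The probe set 201572_x_at gave 1822, 1824 and 1794 on the 5-Aza arrays and 2101, 2517 and 2153 on the control arrays, again with no overlap (log2 fold change -0.31, SE 0.15, adjusted p = 0.736). It passed an unadjusted p under 0.025 with trend and robust variance and after median centring (log2 fold change -0.50), but not in the limma fit of the values as deposited. The third, 201571_s_at, had -0.11 with overlapping groups. All 3 probe sets were thus lower, but they read RNA of the same arrays and 1 gene, and are no replicates of each other.

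SAMHD1, a triphosphate hydrolase that is best known for restricting retroviruses in myeloid cells, had signals of 533.5, 710.4 and 645 on the 5-Aza arrays and 432, 413.5 and 442 on the control arrays (234987_at). The lowest 5-Aza array stood above the highest control array, and the control arrays lay close together. In limma the log2 fold change was 0.54 (SE 0.17, 95% interval 0.12 to 0.96), with an unadjusted p of 0.0205 and an adjusted p of 0.604, and p = 0.1 in the exact permutation test. The unadjusted call at 0.025 was lost with a SAM-type statistic, which need not equal the SAM run of the study. It was also lost after median centring (log2 fold change 0.36), with the replicate block, and when any array other than 5-Aza replicate 1 was left out. Over all alternatives the unadjusted p lay between 0.00405 and 0.0934, beside p = 0.1 in the exact permutation test. The difference was positive in all of these, with log2 fold changes from 0.36 to 0.66.

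All 6 probe sets of SAMHD1 had a positive log2 fold change, from 0.29 to 0.73. In 235529_x_at the signals were 1096, 1077 and 1009.5 on the 5-Aza arrays and 751, 789 and 998 on the control arrays, without overlap (log2 fold change 0.34, SE 0.17, adjusted p = 0.755, limma). In 235964_x_at the groups overlapped, with 505.5, 692 and 549 on the 5-Aza arrays and 506, 383.5 and 543 on the control arrays (0.29, SE 0.22). The value of 0.73 came from 204502_at and rested on control replicate 3, whose signal of 35.7 was below its background level. Without that array it was -0.007. The dimmer probe sets 1559883_s_at (0.60, SE 0.49) and 1559882_at (0.38, SE 1.23) also had overlapping groups. The value of 1559883_s_at rested on control replicate 2, whose signal of 31.0 was below its background level, and was 0.072 without that array. As with DCTD, these are repeated readings of the same RNA.

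DNA methyltransferases, which incorporated 5-Aza traps, methylate the cytosine of CpG dinucleotides. The 250 bases before the RefSeq start of 3 member genes are shown, with each CG in capitals, for the gene with the largest difference (SAMHD1), the kinase for the drug (DCK) and the gene at background (CDA). The build is GRCh38.p14, and the windows are chr20:36951709-36951958 on the minus strand, chr4:70993399-70993648 on the plus strand and chr1:20588847-20589096 on the plus strand.
SAMHD1: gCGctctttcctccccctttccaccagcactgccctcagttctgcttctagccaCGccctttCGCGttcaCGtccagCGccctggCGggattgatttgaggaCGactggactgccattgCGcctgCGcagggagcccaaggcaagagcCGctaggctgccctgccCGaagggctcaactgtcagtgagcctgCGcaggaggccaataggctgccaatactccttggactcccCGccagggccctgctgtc
DCK: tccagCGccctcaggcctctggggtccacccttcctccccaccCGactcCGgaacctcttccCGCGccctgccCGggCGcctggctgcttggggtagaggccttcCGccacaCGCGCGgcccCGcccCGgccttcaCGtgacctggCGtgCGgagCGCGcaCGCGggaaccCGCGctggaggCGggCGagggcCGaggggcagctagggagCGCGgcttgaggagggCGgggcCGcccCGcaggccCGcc
CDA: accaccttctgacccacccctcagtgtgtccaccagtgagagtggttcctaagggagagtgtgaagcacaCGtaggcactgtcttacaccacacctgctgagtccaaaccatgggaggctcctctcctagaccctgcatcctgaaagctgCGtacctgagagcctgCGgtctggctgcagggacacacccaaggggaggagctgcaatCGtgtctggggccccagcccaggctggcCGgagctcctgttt
The SAMHD1 window holds 14 CG, the DCK window 31 and the CDA window 5. Among 35116 RefSeq windows of this length 44.8% hold at least as many CG as SAMHD1, 10.9% at least as many as DCK and 65.7% at least as many as CDA. The motif searched was CG, which reads the same on both strands. Windows were found for 9 of the 10 members, and those of the others held between 18 and 40 CG. No methylation was measured on these arrays, and the counts describe the sequence only.

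Signals of different probe sets depend on the probes and give no order of abundance, so that each gene is compared only with itself. RRM1, the large catalytic subunit, had signals of 6494, 6499 and 7136 on the 5-Aza arrays and 5933, 6753 and 5732 on the control arrays (201477_s_at). The groups overlapped through control replicate 2 alone. RRM1 had a log2 fold change of 0.13 (SE 0.15, 95% interval -0.24 to 0.50, adjusted p = 0.879, limma) and that of 201476_s_at was 0.17 (SE 0.21). Both turned negative after median centring (-0.056 and -0.018).

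RRM2, the subunit that carries the radical and is made mostly in S phase, had signals of 5921, 6457.5 and 5881 on the 5-Aza arrays and 5604, 8198 and 5284 on the control arrays (209773_s_at). Control replicate 2 was the highest of all 6 arrays and the other control arrays were the lowest. With all arrays the log2 fold change was -0.037 (SE 0.22, adjusted p = 0.981, limma) and it was 0.16 without control replicate 2. The second probe set, 201890_at, had 4973, 5147 and 4455.5 on the 5-Aza arrays and 4162, 5373 and 3488 on the control arrays, with the same array on top (log2 fold change 0.18, SE 0.21, adjusted p = 0.880).

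Control replicate 2 stood out for more of the group. It held the highest control signal for 7 of the 9 member genes, against 34.6% of all genes. Of these 7, CDA was near background. For DCK (1563 against 1554 on control replicate 1) and DCTD (2380.2 against 2359 on control replicate 3) this array led only slightly. In a list of 17 genes of S phase and proliferation, which includes PCNA, MKI67 and the MCM genes, it was the highest control array for all 17. The median log2 fold change of that list was 0.155 over all arrays and 0.297 without control replicate 2, and none of the 17 passed an unadjusted p under 0.05 in limma. After median centring the median of the list was -0.032, with 7 genes positive and 10 negative. The part of this list in the member values was not tested. Leaving control replicate 2 out turned the direction for the RRM2 probe set 209773_s_at but not for 201890_at, which was 0.35 without it.

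A ratio taken within an array does not depend on how the arrays were scaled. The log2 ratio of DCK to DCTD, of the kinase to the deaminase of its product, was -0.25, -0.23 and -0.35 on the 5-Aza arrays and -0.52, -0.61 and -0.94 on the control arrays. Every 5-Aza array was above every control array, with a difference of 0.41. This separation follows from the values of both genes given above, DCK wholly above and DCTD wholly below control, and is given as a description. For DCK to SAMHD1 the groups overlapped (mean 1.45 ± 0.26 on 5-Aza arrays and 1.75 ± 0.24 on control arrays, SD, n = 3 each, p = 0.2 in the exact permutation test), as they did for RRM2 to RRM1 (-0.14 ± 0.14 on 5-Aza arrays and 0.027 ± 0.22 on control arrays, SD, n = 3 each, p = 0.4 in the same exact permutation test). These pairs were among 5 that were formed after the values had been seen, with UCK1 to DCK and SLC29A1 to SLC29A2 as the others, both with overlapping groups. The ratios compare changes and give no relative abundance.

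Median centring lowered the log2 fold change of every probe set by the same amount, members and others alike. Centring each array on its median shifted the median log2 fold change of all genes to -0.15, against 0.038 as deposited, and quantile normalization gave -0.004. Under both, DCTD and SLC29A2 stayed wholly below control and SAMHD1 wholly above it. After centring, DCTD had -0.35, SLC29A2 -0.30 and UCK1 -0.32, and UCK1 then also lay wholly below control. SAMHD1 had the highest log2 fold change of the 9 genes before centring and therefore also after it (0.36), since an equal shift keeps their order.

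**Figure D3:**
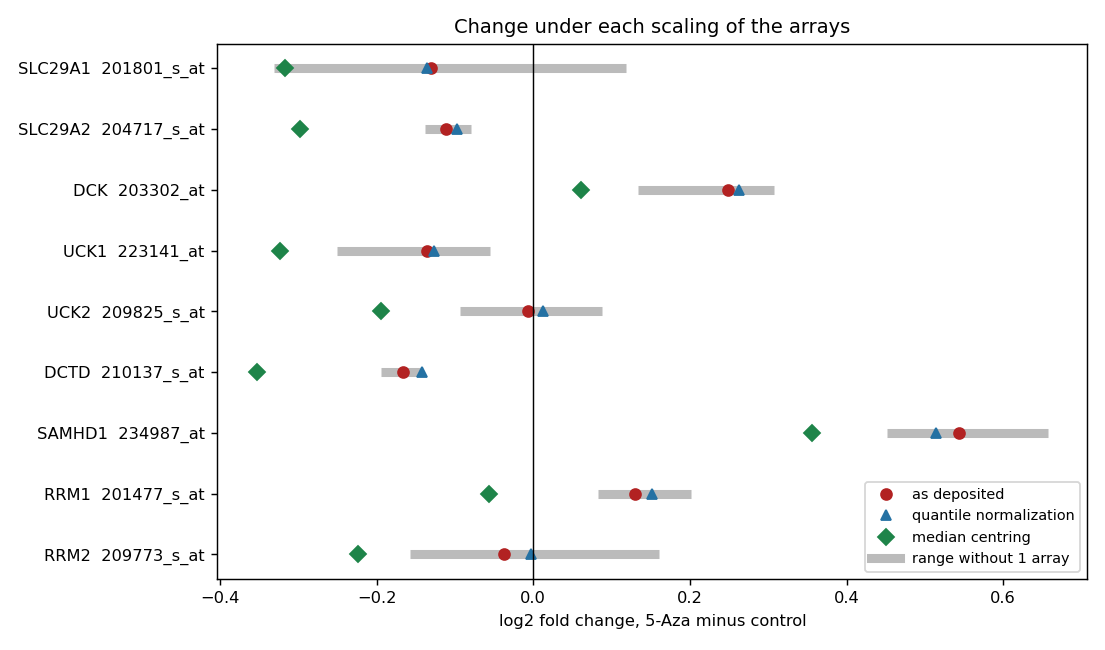
Log2 fold change (5-Aza minus control) of the 9 genes above background, with the values as deposited (circles), after quantile normalization (triangles) and after median centring (diamonds), and the range when 1 array is left out (grey bars). The diamonds lie to the left of the circles by the same distance for every gene, because centring shifts all probe sets equally. SAMHD1 and DCK lie to the right of 0 and DCTD, SLC29A2 and UCK1 to the left of it under each setting drawn. UCK2 is the probe set shared with MIR3658.

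Other genes of the pathway were taken from lists. Of 6 measured carriers outside the group none passed an unadjusted p under 0.025. SLC29A3, an intracellular carrier, had signals of 454, 373 and 474 on the 5-Aza arrays and 492, 657 and 903 on the control arrays, all lower than control (log2 fold change -0.62, SE 0.27, adjusted p = 0.719, limma). SLC28A1, a concentrative carrier for pyrimidine nucleosides, had 1.36 (SE 0.66) with overlapping groups. Its control signals of 31.0, 10.1 and 53.8 were near background. Among 7 export pumps 1 was higher and 1 was lower at this threshold (3.01% and 0.915% of all genes were), and 0 at an adjusted p under 0.05. ABCB1, the multidrug pump, had 72.5, 118.3 and 62.4 on the 5-Aza arrays and 40.0, 30.4 and 43.8 on the control arrays (log2 fold change 1.09, SE 0.30, adjusted p = 0.566), with control signals near background. ABCC4, a pump for nucleotide analogs, had 1454, 1614.5 and 1683 on the 5-Aza arrays and 2031, 2230.2 and 2514 on the control arrays (-0.51, SE 0.16, adjusted p = 0.605), with no overlap. When any 1 array was left out, no pump was lower at an unadjusted p under 0.025. After quantile normalization or median centring none was higher, while 1 was still lower.

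**Figure D4:**
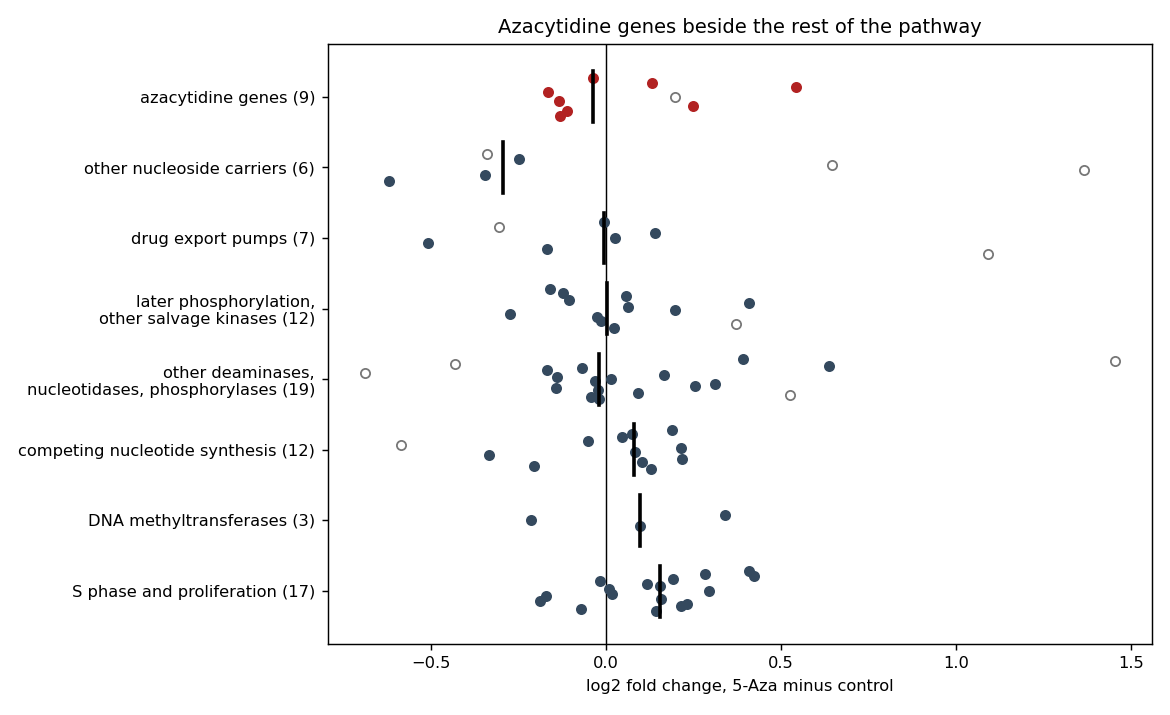
Log2 fold change (5-Aza minus control) of the azacytidine genes and of 7 related lists, 1 point per gene, n = 3 arrays per group. Black bars are medians, brackets give how many genes were measured, and open points mark genes at or below TrpnX on 1 or more arrays. The medians of the lists lie between -0.29, for the nucleoside carriers, and 0.155, for the S phase genes.

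Of 12 genes for later phosphorylation and other salvage kinases 0 passed an unadjusted p under 0.025, and the median log2 fold change was 0.003. CMPK1, which adds the second phosphate to cytidine nucleotides, had signals of 6386 ± 65.6 in 5-Aza-treated cells and 6293 ± 206 in control cells (SD, n = 3 each). The smallest p there belonged to NME4 (log2 fold change -0.28) and TK2 (0.41), both with overlapping groups. Of 19 deaminases, nucleotidases and phosphorylases 0 passed. DPYD, the first enzyme of pyrimidine breakdown, had the smallest p (log2 fold change 0.64, SE 0.23, adjusted p = 0.666), with 121, 118.5 and 143 on the 5-Aza arrays and 69.6, 109 and 70.8 on the control arrays. Next was UPB1, a later enzyme of that route (1.45, SE 0.92), with overlapping groups. Its signal of 6.4 on control replicate 2 was below background.

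Of 12 genes of competing pyrimidine and deoxynucleotide synthesis 0 passed, with a median of 0.079 (-0.11 after median centring). TYMS, thymidylate synthase, had 8330.5, 8738 and 9169 on the 5-Aza arrays and 7951, 10022 and 7055 on the control arrays, again with control replicate 2 on top (0.082, SE 0.19, adjusted p = 0.942). RRM2B, the reductase subunit induced by p53, had 398, 428 and 398 on the 5-Aza arrays and 405, 289 and 371 on the control arrays (0.21, SE 0.18, adjusted p = 0.846), with overlapping groups. The smallest p in this list belonged to CTPS2 (-0.34, SE 0.20) and CTPS1 (0.22, SE 0.16), which make CTP. Of the 3 DNA methyltransferases, DNMT1 had 0.097, DNMT3A -0.21 and DNMT3B 0.34, and none passed. In the S phase list TOP2A (0.42) and CDK1 (0.41) had the smallest p.

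For the 4 member genes whose groups did not overlap, the genes with the most similar profile over the 6 arrays were sought among 11730 genes with a mean signal above the median. For SAMHD1 these were HOMER1 (Pearson r = 0.994), EFR3A (0.991) and ERFE (0.986). For DCK they were PHTF2 (0.996), TMEM123 (0.995) and NFE2L2 (0.986), for DCTD ARFGAP2 (0.996), SURF1 (0.992) and NDUFS7 (0.991), and for SLC29A2 ECI1 (0.992), MLST8 (0.987) and PPP4C (0.985). With 6 arrays in 2 groups such values arise among many genes, and they are a description of these arrays.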

How the data were processed

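Total RNA of HT-29 cells was hybridized to 6 HGU133 Plus 2.0 arrays, 3 of 5-Aza-treated and 3 of control cells. The deposited table holds linear intensity values, 1 for each of 54675 probe sets per array, which the authors produced with the affy package (version, background correction and summary method are not given in the sources used here). On every array the mean without the lowest and highest 2% was 500. The 62 control probe sets were left out, 1 was added to each value and the log2 was taken, with no further normalization. The comparison of groups used limma (version 3.58.1, under R 4.3.3) over all 54613 remaining probe sets with Benjamini-Hochberg adjustment. Single values were also compared with a two-sided exact permutation test. The scripts were tested on simulated data. Symbols came from the platform annotation, in which 41097 probe sets have 1 symbol, 1801 several and 11777 none. The members, the 9 related lists and their tests were chosen with earlier results of these data known. Genes named from a list were up to 4 with an unadjusted p under 0.025 and no overlap, or else the 2 with the smallest p, along with TYMS and RRM2B. Other genes of the lists were named after their values were seen. Of the listed genes, 9 had no probe set with a single symbol and were not used here. Alternatives were a SAM-type statistic, trend and robust variance, quantile normalization, median centring, only probe sets above the median signal, 16 added in place of 1, the replicate block, each array left out in turn and other ways to summarize a gene. The 3 arrays per group limit the precision.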

Additional observations from a re-analysis of the deposited data

How the results depend on the processing

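Of 334 single probe set values recomputed under the alternatives, 297 kept their direction and their side of an unadjusted p under 0.025, 26 changed sign, 8 lost the call and 3 gained it, and the cause was not tested. The 8 losses were all of SAMHD1 234987_at. The gains were DCTD 201572_x_at (-0.31 with trend and robust variance, -0.50 after median centring) and SLC29A2 1560151_x_at, near background (2.71 without control replicate 1). The count of higher member probe sets, 1, was 0 after median centring, with the replicate block and with the SAM-type statistic, and 0 to 1 without 1 array. The count of lower ones, 0, was 1 with trend and robust variance and 1 after median centring. The count of members at an adjusted p under 0.05 was 0 throughout, while over the whole array trend and robust variance called 22 probe sets higher and 1 lower, and a test limited to the brighter probe sets called 9 higher. Adding both UCK2 probe sets, an alternative chosen after seeing the data, changed none of these counts. The median log2 fold change of the member genes, -0.037, was -0.22 after median centring, 0.15 when all probe sets of each gene were averaged, 0.176 over all member probe sets and -0.14 to 0.16 without 1 array (0.16 without control replicate 2). The sign changed after quantile normalization for SLC29A1 201802_at (-0.013), SLC29A2 1553540_a_at (-0.015), UCK2 209825_s_at (0.012) and CDA (-0.030), and after median centring for SLC29A1 201802_at (-0.155), SLC29A2 1553540_a_at (-0.176), RRM1 (-0.056 and -0.018) and RRM2 201890_at (-0.004). Without 1 array, SLC29A1 201801_s_at ranged from -0.33 to 0.12, 201802_at from -0.065 to 0.15, SLC29A2 1553540_a_at from -0.115 to 0.10, UCK2 209825_s_at from -0.094 to 0.088, CDA from -0.39 to 1.05, DCTD 201571_s_at from -0.24 to 0.005, SAMHD1 204502_at from -0.007 to 1.15, 1559882_at from -0.72 to 1.27, RRM1 201476_s_at from -0.001 to 0.28 and RRM2 209773_s_at from -0.16 to 0.16. The groups share only replicate numbers. Deviations of arrays with the same number had correlations of -0.012, 0.002 and 0.010, so that no pairing was assumed. Signals near TrpnX, above all CDA, could show only very large changes.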
